A study of Homo sapiens with 6 samples.

Results

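The glutathione peroxidases are a family of enzymes that use thiols to reduce peroxides. The genes described are GPX1, GPX2, GPX3, GPX4, GPX7 and GPX8, 6 of the 63241 genes in the deposited table, taken by their symbols. Their RNA was sequenced in PANC-1, a long-established line from a human pancreatic carcinoma, labelled as wild type. Vehicle cells received DMSO at under 0.1%, and treated cells received 20 µM Schisandrin B, a lignan of Schisandra fruit, with RNA taken after 24 h. Each group had 3 libraries, and nothing in the labels ties them to separate cultures, so p-values measure the spread between these libraries, which may be technical. The series title asks whether the compound slows pancreatic cancer cells by inducing ferroptosis, a cell death driven by iron-dependent oxidation of membrane lipids.

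Most family members carry selenocysteine, a selenium analogue of cysteine, at the catalytic site, and others carry cysteine. Selenocysteine is encoded by TGA, a codon that otherwise ends translation, and is inserted with the help of an element in the 3′ end of the transcript and a dedicated set of proteins. GPX4 reduces lipid hydroperoxides within membranes and is the central enzymatic brake on ferroptosis. GPX1 is the abundant cytosolic and mitochondrial form, GPX2 is the form of the gut epithelium and GPX3 is secreted into plasma. GPX7 and GPX8 sit in the endoplasmic reticulum (ER), where they pass oxidising equivalents from hydrogen peroxide to protein disulfide isomerases.

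The catalytic codon is shown because it divides the family by chemistry. Each sequence is the coding strand of a GENCODE 29 transcript on GRCh38 with 24 bases on either side of the codon, which is in capitals. The codon was annotated as selenocysteine in GPX1, GPX2, GPX3 and GPX4 and was located by alignment to GPX4 in GPX7 and GPX8.
GPX4: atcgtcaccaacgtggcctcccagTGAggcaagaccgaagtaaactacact
GPX1: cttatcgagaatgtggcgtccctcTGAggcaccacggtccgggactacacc
GPX2: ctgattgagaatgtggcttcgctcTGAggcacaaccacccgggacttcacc
GPX3: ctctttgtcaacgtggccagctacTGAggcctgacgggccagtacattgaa
GPX7: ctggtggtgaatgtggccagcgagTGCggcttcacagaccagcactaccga
GPX8: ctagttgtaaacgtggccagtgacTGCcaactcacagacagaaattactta
The first 4 lines have TGA and the last pair has TGC, a cysteine codon. In GPX4 the codon lies in exon 3 of 7 at chr19:1105403-1105405, plus strand, and is codon 73 of a coding sequence of 591 bases. In GPX8 it lies in exon 2 of 3 at chr5:55161024-55161026, plus strand, and is codon 79 of 627 coding bases. The GPX1 codon is at chr3:49358132-49358134, minus strand, in exon 1 of 2, and the GPX3 codon is at chr5:151025469-151025471, plus strand, in exon 2 of 5. Coding sequences of different members were 53.6% to 71.3% identical over their aligned bases, and no pair shared an identical stretch of 50 bases.

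Library totals ran from 13656826 to 18289410 counts, and 15773 genes had enough counts to be tested. Of 7 markers of a ductal carcinoma line, KRT8, KRT18, KRT19, SOX9 and VIM were present and KRT7 and EPCAM stayed under 1 CPM (counts scaled by library size) in every library. Summed, the 7 markers stood at 12212 to 12695 CPM in vehicle and 9274 to 9811 in Schisandrin B. Most of that sum was VIM, which fell 1.22-fold. The ductal markers fell more: KRT8 2.67-fold, KRT18 1.64-fold, KRT19 2.08-fold and SOX9 2.86-fold. Of 12 markers of other cells, 10 stayed under 1 CPM in every library and 4 of these (PRSS1, CPA1, INS and GCG) had no counts. The summed level of all 12 was 26.0 to 29.4 CPM in vehicle and 52.5 to 58.7 in Schisandrin B. Nearly all of it was CD68, a lysosomal protein that carcinoma lines also express. COL1A1, the other marker to reach 1 CPM, went from a mean of 1.48 CPM in vehicle to 0.774 in Schisandrin B. The part of these shifts in the results below was not tested.

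Schisandrin B split the family. Expression of GPX4 and GPX3 fell 2.40-fold and 2.65-fold, that of GPX8 rose 1.79-fold, and that of GPX1 did not pass the test. GPX2 and GPX7 had too few counts to be tested. Of the 4 members tested, 2 were lower, 1 was higher and 1 was called in neither direction. Over all genes tested, the quasi-likelihood test of edgeR called, at a threshold of 0.05 on the adjusted p, 35.2% lower, 35.0% higher and 70.2% in either direction, so 3 calls among 4 members is close to the background. The median log2 fold change over all tested genes was 0.0004, and each change is relative to the other genes. In bulk RNA, fewer cells of a kind and less RNA per cell cannot be told apart.

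**Figure D1:**
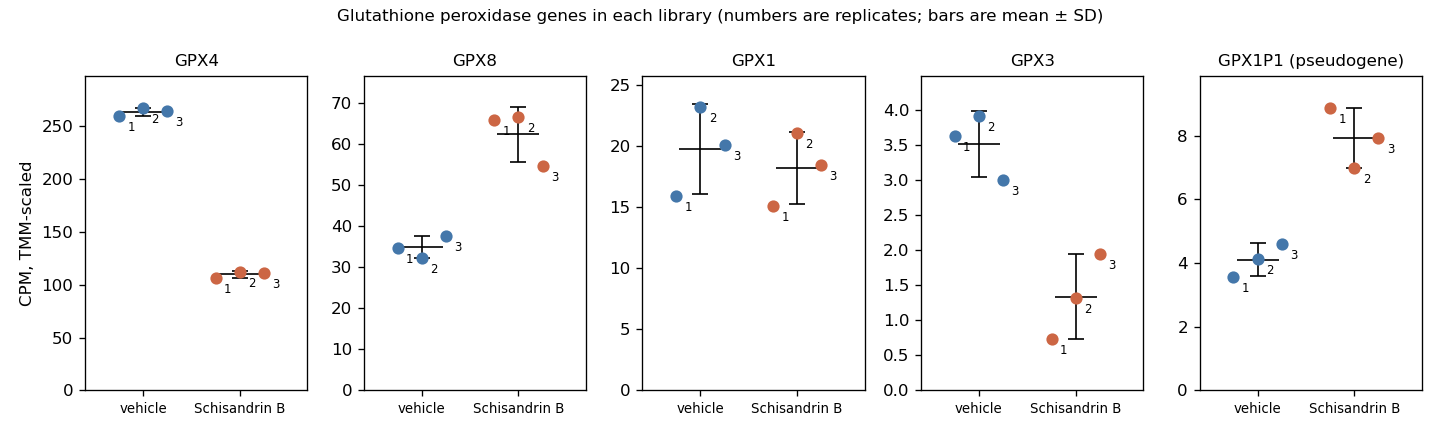
Expression in TMM-scaled CPM (vertical axes, each from 0) of 4 family members and the pseudogene GPX1P1 in 3 vehicle and 3 Schisandrin B libraries; points are libraries numbered by replicate, and bars are mean ± SD. GPX4 falls from about 264 to 110 CPM with little spread, GPX8 rises from 34.8 to 62.3, the GPX1 groups overlap, and GPX3 is low throughout.

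GPX4 (ENSG00000167468, chromosome 19, 1103982 to 1106791 on GRCh38, plus strand) was the most abundant member per length of transcript. Its counts were 3502, 3814 and 4757 in vehicle and 1734, 1603 and 1546 in Schisandrin B, which scaled to 260, 267 and 264 CPM against 106, 112 and 111 CPM. The 2 groups stood far apart, and the coefficient of variation was 1.41% in vehicle and 2.85% in Schisandrin B, the tightest of the tested members. Mean expression was 264 ± 3.71 CPM in vehicle and 110 ± 3.13 after treatment (SD, n = 3 each). On the log2 scale GPX4 fell by 1.27, with a standard error (SE) of 0.04, a 95% interval of -1.36 to -1.18 and an edgeR adjusted p of 6.9e-14. Among all tested genes, 5.55% had a more negative fold change. The gene has transcripts for cytosolic, mitochondrial and nuclear forms of the enzyme, and the counts are summed over them. GPX4 transcripts are short and GC-rich, with 62.5% GC over 1184 bases in the longest. The 479 tested genes within 5 percentage points of GC and 0.5 log2 units of length had a median log2 fold change of -0.27, and 45.9% of them were called lower. With offsets for GC content and length the GPX4 log2 fold change was -1.29 (edgeR adjusted p = 1.21e-14), against -1.27 without them. The median over all tested genes was -0.06 with the offsets and 0.0004 without. Whether the offsets removed the shift of the similar genes was not tested.

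GPX8 (ENSG00000164294, chromosome 5, 55160167 to 55167297, plus strand), an ER membrane enzyme, moved the other way. Its counts were 466, 460 and 677 in vehicle and 1074, 955 and 757 in Schisandrin B, or 34.6, 32.2 and 37.6 CPM against 65.7, 66.6 and 54.5 CPM. Every Schisandrin B library lay above every vehicle library, and Schisandrin B replicate 3 was the lowest of its group. Mean expression went from 34.8 ± 2.71 CPM up to 62.3 ± 6.73 CPM (SD, n = 3 each). On the log2 scale the rise was 0.84 (SE 0.08, 95% interval 0.66 to 1.01, edgeR adjusted p = 2.99e-07). GPX8 transcripts are long and AT-rich, with 40.8% GC over 3422 bases in the longest, and the 2147 tested genes alike in GC and length had a median log2 fold change of -0.03. CDC20B, a gene on the opposite strand that spans GPX8, had 2 counts in all 6 libraries together. GPX7 (ENSG00000116157, chromosome 1, 52602371 to 52609051), the other ER member with a cysteine codon, was not expressed at a measurable level. It had 2 counts over the vehicle libraries and 3 over the Schisandrin B libraries, so the only ER member that could be followed was GPX8.

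GPX1 (ENSG00000233276, chromosome 3, 49357174 to 49358605, minus strand) showed no detectable change. Its counts of 215, 332 and 362 in vehicle and 247, 302 and 256 in Schisandrin B scaled to 16.0, 23.3 and 20.1 CPM against 15.1, 21.1 and 18.4 CPM. The groups overlapped, and replicate 1 was the lowest library in both. Means were 19.8 ± 3.66 and 18.2 ± 2.97 CPM (SD, n = 3 each), and the log2 difference was -0.12 (SE 0.15, edgeR adjusted p = 0.487). The 95% interval of -0.46 to 0.21 leaves room for a modest change in either direction. The 373 tested genes alike in GC content and length had a median log2 fold change of -0.32.

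Reads of GPX1 are hard to assign, because a processed pseudogene, GPX1P1 (ENSG00000197582, chromosome X, 13378735 to 13379340, minus strand), copies almost the whole coding sequence. The stretch of the pseudogene that aligns with the catalytic site is shown to make the likeness visible.
GPX1: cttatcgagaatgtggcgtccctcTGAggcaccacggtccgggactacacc
GPX1P1: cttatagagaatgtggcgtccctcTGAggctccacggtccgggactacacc
The pseudogene keeps TGA at this place, here at chrX:13379200-13379202. Over 603 aligned bases, 98.2% were identical to GPX1, and 40.2% of all 50-base windows of GPX1P1 occurred unaltered in the GPX1 transcript. The counts assigned to GPX1P1 were 48, 59 and 83 in vehicle and 145, 100 and 110 in Schisandrin B. All 3 Schisandrin B libraries lay above all 3 vehicle libraries, with means of 4.10 ± 0.526 and 7.92 ± 0.952 CPM (SD, n = 3 each) and a log2 rise of 0.94 (SE 0.17, edgeR adjusted p = 8.51e-05). LINC01203, a long noncoding RNA gene that spans GPX1P1 on the opposite strand, had 17, 31 and 28 counts in vehicle, against 61, 65 and 53 in Schisandrin B. The authors' handling of strand and of reads that match both copies was not given in the sources used here. GPX1P1 took 17.3 ± 1.95% of the reads of the pair in vehicle, against 30.6 ± 6.08% in Schisandrin B (SD, n = 3 each). When the reads of the pair were added, the levels were 23.9 ± 4.01 and 26.1 ± 2.03 CPM and the log2 fold change was 0.13 (edgeR adjusted p = 0.328). The sign of the GPX1 estimate therefore depends on where these reads are placed, while in both versions it did not pass the test. Another pseudogene of GPX1, GPX1P2, had no counts.

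GPX3 (ENSG00000211445, chromosome 5, 151020591 to 151028988, plus strand), the plasma enzyme, was lowly expressed and fell. It had 49, 56 and 54 counts in vehicle, against 12, 19 and 27 in Schisandrin B, or 3.63, 3.92 and 3.00 CPM against 0.735, 1.32 and 1.94 CPM. The groups did not overlap, but the Schisandrin B libraries spread widely, with a coefficient of variation of 45.3%. Means were 3.52 ± 0.472 and 1.33 ± 0.605 CPM (SD, n = 3 each). The log2 difference was -1.41 (SE 0.29, 95% interval -2.03 to -0.79, edgeR adjusted p = 3.92e-04). The interval spans that of GPX4, so the 2 falls cannot be ranked. GPX2 (ENSG00000176153, chromosome 14, 64939152 to 64942746), a well-known target of the antioxidant factor NRF2, had 1 count in all 6 libraries. The remaining family genes, GPX5 and GPX6, had none. A count of 0 allows up to 0.167 to 0.223 CPM per library (3 counts), and such limits cover counting error only.

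Of the 4 tested members, GPX4, GPX8 and GPX3 had groups that did not overlap in CPM, against 73.5% of all tested genes. In the authors' deposited table, GPX4 has a fold of 0.405, GPX3 of 0.366, GPX8 of 1.74 and GPX1 of 0.892, with an adjusted p of 0.451 for GPX1. That table classes GPX4 and GPX3 as down, at log2 folds of -1.31 and -1.45. It gives no class to GPX8, at 0.80 with an adjusted p there of 3.51e-13. The pseudogene GPX1P1, at 0.91, has no class either, so the classes follow the size of the fold in these rows.

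Compared per kilobase of the longest coding transcript, levels in vehicle followed the order GPX4, GPX1, GPX8 and GPX3. GPX4 stood at 263 ± 3.70 CPM per kb, GPX1 at 17.2 ± 3.18, GPX8 at 10.7 ± 0.834 and GPX3 at 2.00 ± 0.268 (SD, n = 3 each). No neighbours in that order overlapped between libraries. In Schisandrin B, GPX4 was at 110 ± 3.13 CPM per kb, GPX8 at 19.2 ± 2.07, GPX1 at 15.8 ± 2.58 and GPX3 at 0.760 ± 0.344. GPX8 and GPX1 overlapped there, with GPX8 between 16.8 and 20.5 and GPX1 between 13.1 and 18.3 CPM per kb, so their order is not resolved.

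Because GPX4 dominated, the summed level of the 6 members followed it. The sum was 286, 299 and 295 CPM per kb in vehicle and 140, 151 and 145 in Schisandrin B, a ratio of means of 0.496. Without GPX4 the sum was 26.6, 32.4 and 30.9 CPM per kb in vehicle and 34.0, 39.6 and 33.9 in Schisandrin B, a ratio of 1.20. GPX4 made up 89.8 ± 0.800% of the family level in vehicle, against 75.4 ± 1.44% in Schisandrin B (SD, n = 3 each). GPX8 went from 3.66 ± 0.312% to 13.2 ± 1.48% and GPX1 from 5.85 ± 0.958% to 10.8 ± 1.37%. By arithmetic, the shares of the other members grow when GPX4 falls. The GPX1 level itself went from 17.2 to 15.8 CPM per kb. The sums, their ratios and the shares all depend on the lengths used. As shares of raw counts, GPX4 had 81.9% and 57.3% and GPX8 10.8% and 32.5%. With exon unions as lengths GPX1 had 8.92% in vehicle and 15.2% after treatment.

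**Figure D2:**
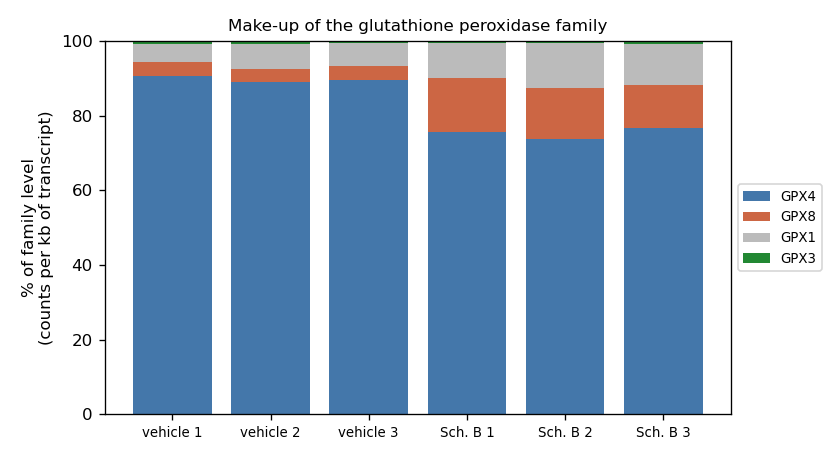
Make-up of the family in each library, as percent of the summed counts per kb of transcript (vertical axis); colours are members, and GPX2 and GPX7 are too small to be seen. GPX4 fills 89.2% to 90.7% of the vehicle bars and 73.8% to 76.6% of the Schisandrin B bars, and the GPX8 part widens.

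Ratios of counts within a library do not depend on scaling between libraries and compare members directly. The log2 ratio of GPX4 over GPX8 was 2.91, 3.05 and 2.81 in vehicle and 0.69, 0.75 and 1.03 in Schisandrin B. It moved by -2.10, and no library of one group came near the other group. GPX1 over GPX4 moved by 1.15, GPX1 over GPX8 by -0.95, GPX1 over GPX3 by 1.38 and GPX3 over GPX8 by -2.34, each without overlap between groups. GPX3 over GPX4 was the exception, at -6.24 ± 0.197 in vehicle against -6.47 ± 0.671 in Schisandrin B (SD, n = 3 each), with overlapping groups. Two-sided exact permutation tests gave p = 0.1 for the 5 ratios without overlap, the smallest that 3 against 3 libraries allow, and p = 0.8 for GPX3 over GPX4. Adjusted over the 6 pairs, the exact test gave 0.12 and 0.8, so no ratio could pass a threshold of 0.05 in this design.

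**Figure D3:**
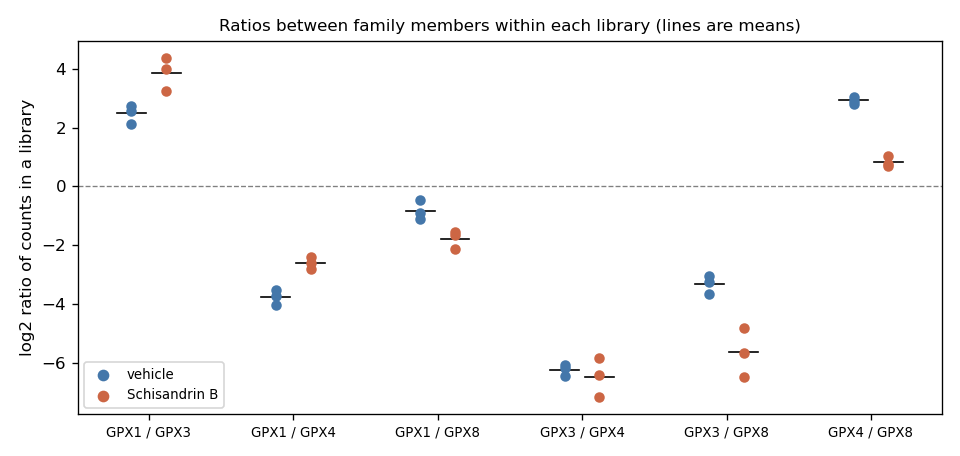
Log2 ratio of counts between pairs of family members within each library (vertical axis); points are libraries, coloured by group, and lines are group means. The groups stand apart in 5 of 6 pairs and overlap for GPX3 over GPX4.

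Other genes were compared with each tested member over the 6 libraries by the Euclidean distance between log2 CPM values centred on the gene's mean. Nearest to GPX4 were AP2S1, a subunit of the clathrin adaptor, at a distance of 0.05, and ATP6V0E2, a subunit of the vacuolar proton pump, at 0.07. HEXIM1, an inhibitor of transcription elongation, came next at 0.07. The median over tested genes with a symbol was 1.56, and genes picked as nearest lie below it by their choice. AP2S1 went from 91.2 ± 1.88 to 37.8 ± 1.18 CPM (SD, n = 3 each), a fold of 2.41. Nearest to GPX8 were TMEM86A at 0.08, the mismatch repair gene PMS1 at 0.11 and N4BP3 at 0.15 (median 1.26). Nearest to GPX3 were ACTN4, an actin crosslinker, at 0.39, ZNF747-DT at 0.51 and CCDC96 at 0.52 (median 1.95). ACTN4 stood at 235 ± 12.7 CPM in vehicle and 101 ± 28.7 in Schisandrin B. It spread widely among treated libraries like GPX3, which follows from its choice by likeness over these libraries. For GPX1 the nearest were NR2F2-AS1 at 0.19, SUDS3P1 and CROCC at 0.20 (median 0.87), with changes of at most 1.12-fold.

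Related gene lists are described by their counts, to be read against the 35.0% of all tested genes called higher and the 35.2% called lower. Of 10 tested genes of selenocysteine insertion, 4 were higher, 3 lower and 3 passed in neither direction, with a median log2 fold change of 0.12. These shares are near the background. SEPHS2, which makes the selenium donor, rose from 58.4 ± 1.79 to 166 ± 6.48 CPM (SD, n = 3 each), and LRP8, a receptor for the selenium carrier selenoprotein P, rose 1.85-fold. SECISBP2, which binds the insertion element, rose 1.85-fold and its relative SECISBP2L 1.21-fold. SEPHS1, a relative of SEPHS2 without its activity, fell 1.76-fold, and EEFSEC, the elongation factor that delivers the selenocysteine tRNA, fell 1.76-fold. SCLY, which recycles selenium, fell 1.29-fold. PSTK and SEPSECS, which build the selenocysteine tRNA, and TRNAU1AP, which binds it, did not pass. SEPSECS came nearest, at 17.6 ± 2.17 and 20.5 ± 0.643 CPM (edgeR adjusted p = 0.0639).

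Of 19 selenoproteins outside the family, 14 were tested, 6 were higher, 6 lower and 2 called in neither direction, with a median log2 fold change of -0.09. That is an even split, as among all tested genes (35.0% higher and 35.2% lower). SELENOS, an ER membrane protein of protein quality control, rose from 19.7 ± 1.48 to 61.5 ± 3.04 CPM (SD, n = 3 each). SELENOF, also of the ER, rose 1.39-fold, and SELENON, an ER protein linked to calcium handling, fell 1.53-fold. Further genes were named after their values were seen. SELENOK and SELENOM of the ER rose 1.59-fold and 1.68-fold, and SELENOT of the ER fell 1.41-fold. TXNRD1, the cytosolic thioredoxin reductase, rose 1.25-fold, whereas the other thioredoxin reductases, TXNRD2 and TXNRD3, fell 1.16-fold and 1.14-fold. SELENOH and SELENOI did not pass, and DIO1, DIO2, DIO3, SELENOP and SELENOV had at most 16 counts over the 6 libraries.

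Glutathione is the usual electron donor of the family. Of 18 tested genes of its supply and recycling, 8 were higher, 7 lower and 3 called in neither direction (GCLM, IDH1 and ME1), with a median log2 fold change of 0.04, again close to the shares over all tested genes. The chains of the cystine importer, SLC7A11 and SLC3A2, rose 5.59-fold and 5.51-fold. PGD, an NADPH-producing enzyme of the pentose phosphate pathway, fell from 548 ± 4.59 to 326 ± 8.20 CPM (SD, n = 3 each). Further genes were picked by role after their values were seen. GCLC, the catalytic subunit of the first synthesis step, rose 2.32-fold, whereas its modifier GCLM stood at 293 ± 13.0 and 281 ± 12.5 CPM (edgeR adjusted p = 0.248). GSS, of the second step, fell 1.45-fold, and GSR, which returns oxidised glutathione to the reduced form used by the peroxidases, fell 1.29-fold.

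Genes listed under ER oxidative folding were higher in 12 of 13 cases and lower in none, with a median log2 fold change of 0.82. Over all tested genes, 35.0% were higher and 35.2% lower. This list, like the others, was chosen with earlier results of these data known. GPX7 and GPX8 feed oxidative folding, but not every gene on the list is a known partner of theirs. PDIA3 rose from 275 ± 6.32 to 646 ± 36.7 CPM (SD, n = 3 each), P4HB, the classical disulfide isomerase, rose 2.05-fold and PDIA4 1.93-fold. VKORC1, the exception, was at 74.6 ± 4.25 and 72.4 ± 4.70 CPM (edgeR adjusted p = 0.53). PRDX4, the ER peroxiredoxin and another consumer of hydrogen peroxide there, rose 1.42-fold and was named after its value was seen.

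Other enzymes that remove peroxides or conjugate glutathione, listed together with the thioredoxins TXN and TXN2, were mostly lower. Of 16 tested, 13 were lower, 1 was higher and 2 were called in neither direction, with a median log2 fold change of -0.48. The shares over all tested genes were 35.2% lower and 35.0% higher. PRDX2, a cytosolic peroxiredoxin, fell from 240 ± 7.02 to 81.7 ± 0.655 CPM (SD, n = 3 each), PRDX1 fell 1.74-fold and CAT, catalase, 2.87-fold. MGST1, a membrane glutathione transferase with peroxidase activity towards lipids, was the one on this list that rose, from 90.5 ± 1.87 to 111 ± 2.26 CPM. The peroxiredoxin PRDX4, which also rose, was counted under ER oxidative folding, so these counts depend on how the lists were drawn. MGST2, a relative of MGST1, and GSTA4 did not pass. GSTA4, which conjugates products of lipid peroxidation, was at 13.3 ± 0.797 and 12.6 ± 2.26 CPM (edgeR adjusted p = 0.607).

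**Figure D4:**
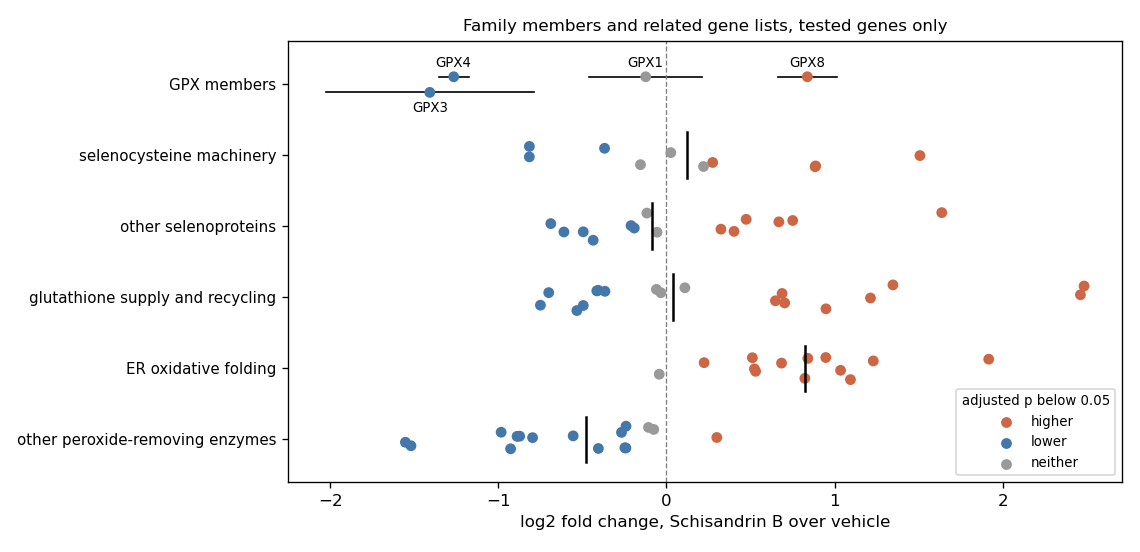
Log2 fold change of Schisandrin B over vehicle (horizontal axis) for the 4 tested family members, with 95% intervals, and for the tested genes of 5 related lists; colours give the call in edgeR's test and black ticks are list medians. ER oxidative folding genes lie on the side of GPX8 apart from VKORC1, other peroxide-removing enzymes lie mostly on the side of GPX4, and the remaining lists spread to both sides.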

How the data were processed

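Gene expression was measured by RNA sequencing of total RNA with a SMARTER mRNA-Seq kit, per the labels' protocols. The authors deposited whole-number counts per Ensembl gene, which were analysed here. The deposited FPKM values, scaled by length and depth, served only as an alternative for family shares. The GPX4 entry of Schisandrin B replicate 1, which is far above every other value, was not used. That whole library was therefore left out of the FPKM shares. The fold ratio, its log2 value and the p-values in the authors' deposited table come from a comparison of theirs by a test that was not given. GRCh38 and mm10 are the builds named in the submitters' processing notes. Aligner, counter and strand setting were not given in the sources used here, and genes with close copies (GPX1, GGT1, SEPHS1, PRDX1) or an overlapping partner are uncertain. Of 58228 gene IDs shared with GENCODE 29, 99.9% overlapped it in position.

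Groups followed the sample titles. Counts were filtered with filterByExpr, scaled by TMM and tested in edgeR 4.0.16 (R 4.3.3) with its quasi-likelihood F-test (two-sided). The p-values computed here were adjusted by Benjamini-Hochberg over the 15773 tested genes, with 0.05 as threshold. The SE is the size of the log2 fold change divided by the square root of F. The method was tested on simulated counts in which only a small part of the genes changed. Scaling under a change as broad as in these data was not simulated. Lengths are those of the longest coding transcript. Distances used log2 CPM with a prior count of 2. Sequences and codons were read from GENCODE 29 with biopython 1.88. Alternatives were other scalings, filters, DESeq2 1.42.0, limma 3.58.1 voom, a replicate block, a threshold of 0.01 and leaving out each library. A correction for GC content and length, summed GPX1 and GPX1P1 reads, and exon unions as lengths were added after seeing the data. The members and lists were chosen with earlier results of these data known. From each list the 3 genes with the smallest adjusted p were named, with members behind counts of 5 or fewer. For each tested member the 3 nearest genes were named.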

Additional observations from a re-analysis of the deposited data

How the results depend on the processing

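The calls of GPX4, GPX8 and GPX3 kept their direction and stayed past the threshold in every alternative that could be fitted, except that GPX3 was removed by the filter of 5 CPM in 3 libraries and has no value there. Log2 fold changes ran from -1.32 to -1.18 for GPX4, from 0.78 to 0.92 for GPX8 and from -1.78 to -1.10 for GPX3, whose extremes came from leaving out Schisandrin B replicates 3 and 1. GPX1 passed in none, at -0.27 to 0.13, and was positive only with GPX1P1 reads added (0.13). The log2 ratio of GPX3 over GPX4 moved by -0.55 to 0.12 with 1 library left out and was positive only without Schisandrin B replicate 1. Shares of the family depended on the length used. GPX4 had 81.9% in vehicle and 57.3% in Schisandrin B with raw counts and 84.5% and 65.0% with exon unions. GPX8 had 10.8% and 32.5% with raw counts and 5.82% and 19.3% with exon unions. GPX1 had 8.92% and 15.2% with exon unions and 9.48% in Schisandrin B with raw counts. With the authors' FPKM, and without Schisandrin B replicate 1, GPX4 had 77.0% in Schisandrin B, and GPX8 had 2.87% and 10.1%. Counts of calls over all genes and in the 5 lists stayed within 1.5 times. With the replicate number as a block, the log2 fold changes were -1.27 for GPX4, 0.83 for GPX8, -1.43 for GPX3 and -0.12 for GPX1, and no call changed. Libraries with the same number did not deviate together, with correlations of 0.034, -0.053 and -0.011 across genes, so they were not treated as pairs. Depth limits GPX3, GPX2 and GPX7.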
